A study of Mus musculus with 6 samples.

Results

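Marrow stromal niche factors are transcripts through which stromal cells around the marrow vessels hold and feed blood-forming cells. The 8 genes described here, Ebf3, Foxc1, Lepr, Pdgfrb, Kitl, Angpt1, Il7 and Vcam1, were taken by gene name from the 25721 genes of the deposited comparison table, and all 8 were found there. In the marrow, reticular stromal cells that carry the leptin receptor make stem cell factor and other signals that keep haematopoietic stem cells and B cell precursors alive. In mouse marrow, the transcription factors FOXC1 and EBF3 maintain these stromal cells.

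RNA was sequenced from cortical bone of wild-type mouse tibiae (the labels state neither strain nor sex). Mice of the adenine group ate a diet with 0.2% adenine by weight, which injures kidney tubules and serves as a model of chronic kidney disease. Mice of the control group ate a diet without adenine. Both diets began at an age of 8 weeks and lasted 4 weeks, to an age of 12 weeks. There were 3 libraries per diet, called adenine 1 to 3 and control 1 to 3. The bone ends had been cut off and the marrow flushed out, so the transcripts measured here came from what remained in or on the cortex.

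The name of the gene group was checked against a stromal marker outside it. Cxcl12, the chemokine that defines these reticular cells, had 378, 299 and 533 CPM (read counts scaled to a common library total) in adenine 1, 2 and 3, against 429, 559 and 464 CPM in control 1, 2 and 3. Endothelial, osteoblast-lineage and fibroblast cells also express Cxcl12, so its presence does not place these transcripts in reticular stroma, and the cell source of the members was not tested. In such bulk tissue, fewer cells of a type and less RNA per cell cannot be told apart.

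Upstream sequences from RefSeq's promoter table (build GRCm38.p6) are shown for 4 of the 8 members, so that the letters before each start can be read beside its values. Each run is the 250 bases before an annotated start, 5′ to 3′ on the gene's own strand, and capitals mark the letters of a motif match. Motifs were searched on both strands: the TATA box (TATAAA), the CCAAT box (CCAAT), the GC box (GGGCGG), the AP-1 motif (TGANTCA), a forkhead core (GTAAACA), the early B cell factor core and the CArG box of serum response factor. The runs are Foxc1 at chr13:31806396-31806645 (plus strand), Ebf3 at chr7:137314446-137314695 (minus strand), Kitl at chr10:100015571-100015820 (plus strand) and the first of 2 Lepr starts at chr4:101717157-101717406 (plus strand).
Foxc1: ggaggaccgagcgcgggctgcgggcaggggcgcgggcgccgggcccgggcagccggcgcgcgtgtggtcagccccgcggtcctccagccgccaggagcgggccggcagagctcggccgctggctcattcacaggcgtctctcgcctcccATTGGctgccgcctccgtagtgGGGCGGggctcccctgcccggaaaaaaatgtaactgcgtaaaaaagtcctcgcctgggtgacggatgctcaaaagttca
Ebf3: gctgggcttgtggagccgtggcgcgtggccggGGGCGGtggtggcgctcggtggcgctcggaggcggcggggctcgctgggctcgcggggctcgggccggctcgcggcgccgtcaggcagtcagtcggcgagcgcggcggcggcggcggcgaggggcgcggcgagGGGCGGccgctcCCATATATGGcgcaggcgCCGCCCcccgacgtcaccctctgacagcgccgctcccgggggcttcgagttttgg
Kitl: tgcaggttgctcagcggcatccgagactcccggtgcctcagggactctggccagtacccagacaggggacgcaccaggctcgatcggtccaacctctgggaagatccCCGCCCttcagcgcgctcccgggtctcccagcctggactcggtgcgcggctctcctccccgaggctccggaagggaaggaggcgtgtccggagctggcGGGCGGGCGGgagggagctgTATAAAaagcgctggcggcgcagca
Lepr: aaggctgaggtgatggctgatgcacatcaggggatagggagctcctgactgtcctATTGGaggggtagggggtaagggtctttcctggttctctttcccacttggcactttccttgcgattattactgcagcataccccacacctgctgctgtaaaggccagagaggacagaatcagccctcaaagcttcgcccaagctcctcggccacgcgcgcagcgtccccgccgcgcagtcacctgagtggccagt

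Kitl held TATAAA 25 to 20 bases before its start, a motif found in 12.4% of the 32851 windows of this length. It also held GGGCGG in 3 places, of which 2 overlap each other, and 32.7% of windows hold this motif. Ebf3 held GGGCGG in 3 places and a CArG box 73 to 64 bases before its start, which 1.47% of windows hold. Foxc1 held 1 CCAAT (33.8% of windows) and 1 GGGCGG, and Lepr held 1 CCAAT. The forkhead core (3.17% of windows), the early B cell factor core (0.779%) and the AP-1 motif (6.75%) did not occur in the printed runs. All 4 runs were richer in G and C than the median window (52.4%), with 70.8% in Foxc1, 80.0% in Ebf3, 69.2% in Kitl and 58.4% in Lepr.

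Total counts were 9977694 to 12044459 in the adenine libraries and 10549071 to 14598010 in the control libraries. Whether the 3 libraries of a diet stem from 3 animals is not in the labels, so every p-value rests on a spread between libraries that may be technical. Residues of other tissues differed between libraries. The 15 skeletal muscle markers summed to 3672 to 92350 CPM in the adenine libraries (highest in adenine 2) and 24970 to 107000 CPM in the control libraries. The 15 kidney tubule markers summed to 1000 to 3402 CPM in the adenine libraries (highest in adenine 1) and 979.5 to 1253 CPM in the control libraries. Aqp1, 1 of these 15, alone had 996, 879 and 878 CPM in adenine 1, 2 and 3, against 957, 1099 and 828 CPM in control 1, 2 and 3. It made up most of the sum in adenine 3 and in every control library, so the sums understate how far the other kidney markers differed. The 10 neutrophil markers summed to 3216 to 4151 CPM in the adenine libraries and 409.6 to 3891 CPM in the control libraries (lowest in control 3). None of these 40 markers was at 0 in all libraries. The 9 erythroid markers summed to far more than the neutrophil markers. They had 48260 to 73160 CPM in the adenine libraries and 9998 to 73080 CPM in the control libraries (lowest in control 3). Markers of osteocytes, the cells within bone, were detected: the 11 summed to 149 to 222 CPM in the adenine libraries and 292 to 596 CPM in the control libraries. All 11 had a negative log2 fold change (adenine over control). By edgeR, 6 of 11 were lower at an unadjusted p under 0.05, as were 6.49% of all tested genes, and none was called at an adjusted p under 0.05.

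The comparison asked whether the niche transcripts of cortical bone stood at another level on the adenine diet. No member passed the test: 0 of 8 were called by edgeR's quasi-likelihood test at an adjusted p under 0.05, as were 0% of the 15609 genes tested. All 8 members passed the filter on low counts. The log2 fold change, adenine over control, was negative for 7 of 8 members and for 50% of all tested genes. Its median was -0.26 over the members and near 0 (-3.85e-07) over all tested genes.

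Foxc1 and Angpt1, both lower on the adenine diet, were the 2 members with an unadjusted p under 0.05 in edgeR. Of all tested genes, 10.7% stood past this limit, 6.49% with a lower and 4.22% with a higher level. The DESeq2 Wald test also called 0 of 8 members, while it called 2.8% of genes, and by it only Foxc1 had an unadjusted p under 0.05, as did 12.9% of genes. The authors' deposited table called 1.4% of its genes and none of the members, its smallest adjusted p among them being 0.442 for Foxc1. The count of 2 in edgeR was 0 without adenine 1 or control 3, 1 without adenine 2 or control 2, and 2 without adenine 3 or control 1. Over all genes, edgeR called 334 without adenine 2 and 0 without any other single library.

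**Figure D1:**
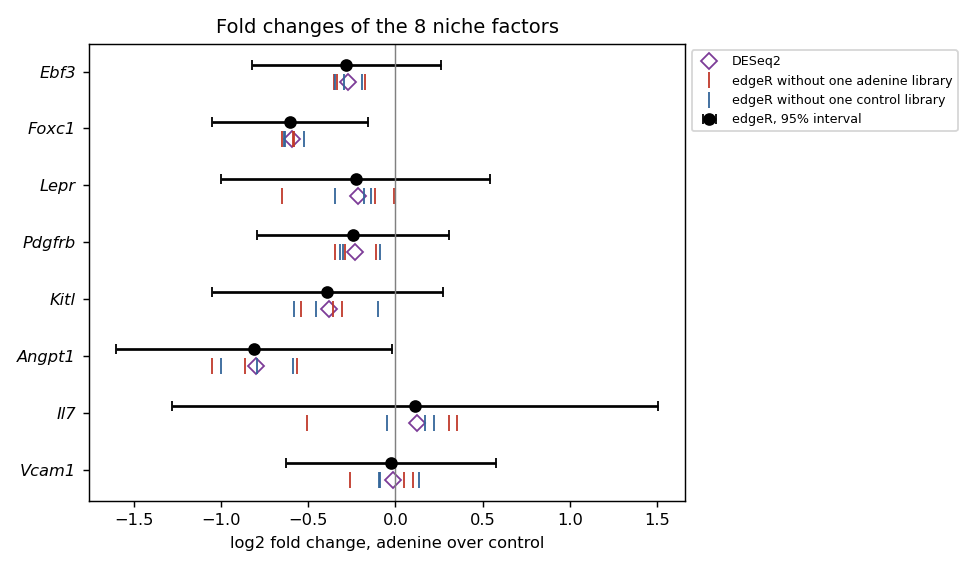
Log2 fold change (adenine over control, x axis) of the 8 niche factors (y axis). Black points and lines are edgeR estimates with 95% intervals, open diamonds are DESeq2 estimates, and ticks are edgeR estimates with 1 library left out (red for an adenine library, blue for a control library); the intervals of Foxc1 and Angpt1 lie below 0 before adjustment for the number of genes, and those of the other 6 include 0.

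Among the transcription factors, Foxc1 had the tightest values of all members. Foxc1 (ENSMUSG00000050295, chromosome 13, 31990616 to 31996459 in the files' coordinates), a forkhead factor of the reticular stroma, had 23.0, 24.9 and 22.7 CPM in adenine 1, 2 and 3, against 33.7, 34.4 and 39.0 CPM in control 1, 2 and 3. Every adenine library lay below every control library, a separation that 8.86% of all tested genes also showed in this direction. The highest library exceeded the lowest 1.10-fold within the adenine group and 1.16-fold within the control group, while the adenine level was 0.659-fold that of the control level (95% interval 0.483 to 0.898). The log2 fold change was -0.60 (SE 0.19, edgeR adjusted p = 0.367), with an unadjusted p of 0.0149. With 1 library left out it ran from -0.65 to -0.52, and the unadjusted p was 0.0558 without adenine 1 and 0.0547 without control 3.

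Ebf3 (ENSMUSG00000010476, chromosome 7, 136795402 to 136916174) encodes a factor of the early B cell factor family that, in mice, keeps marrow stromal cells from turning into bone-forming cells. It had 13.8, 17.2 and 17.7 CPM in adenine 1, 2 and 3, against 19.3, 18.1 and 21.9 CPM in control 1, 2 and 3. The groups did not overlap here either, though adenine 3 and control 2 were close. The adenine level was 0.823-fold that of the control level, with a 95% interval of 0.566 to 1.197 that includes no difference (log2 fold change -0.28, SE 0.23, edgeR adjusted p = 0.656). Thus 2 of 8 members had every adenine library below every control library, and 0 of 8 the opposite, against 8.86% and 7.68% of all tested genes.

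**Figure D2:**
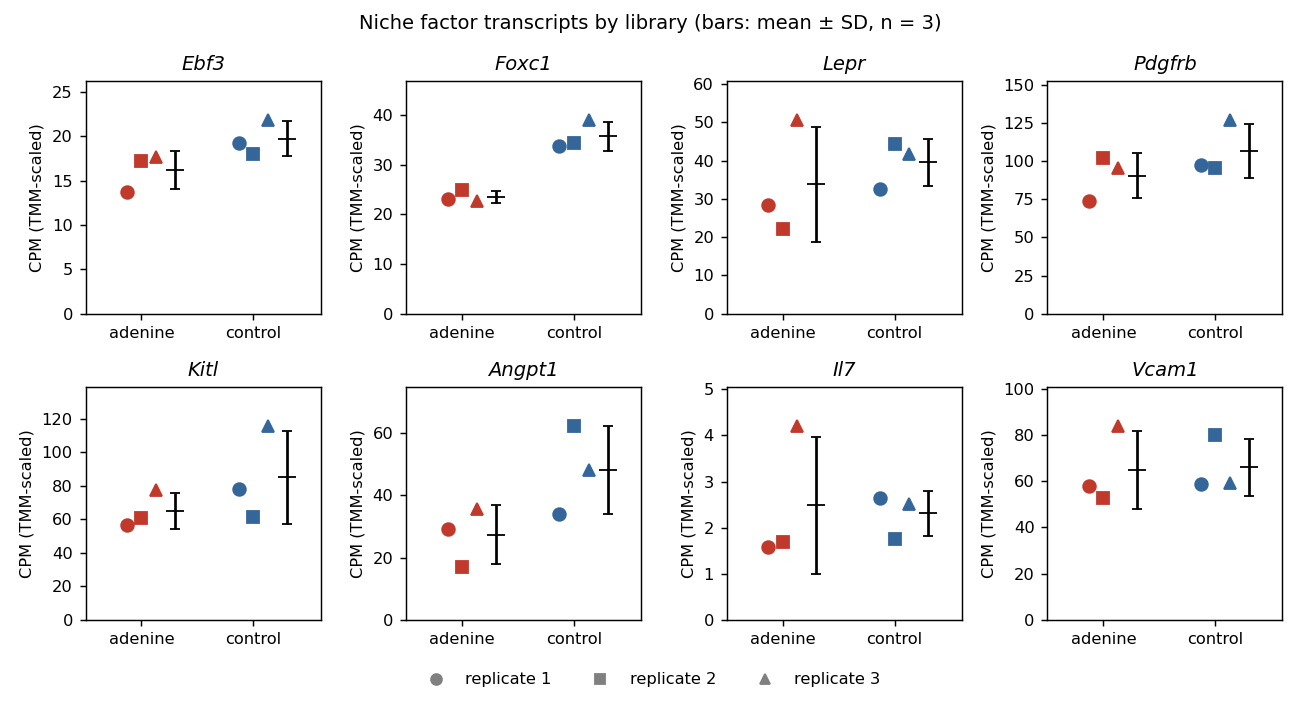
Level of each niche factor in CPM (y axis, scaled between libraries) in the adenine and control groups (x axis), 1 symbol shape per replicate number, with the mean and SD of 3 libraries in black. Foxc1 and Ebf3 are the 2 genes whose groups do not overlap, and adenine 3 is the highest library of Lepr, Il7 and Vcam1.

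Of the surface receptors, Lepr encodes the leptin receptor, the defining marker of perivascular marrow stroma. Lepr (ENSMUSG00000057722, chromosome 4, 101574601 to 101672549) had 28.5, 22.2 and 50.7 CPM in adenine 1, 2 and 3, against 32.7, 44.4 and 41.8 CPM in control 1, 2 and 3. Adenine 1 and 2 lay below the control range and adenine 3 above it, a 2.29-fold span within the adenine group. Its level was 0.854-fold that of the control group (95% interval 0.501 to 1.46), with a log2 fold change of -0.23 (SE 0.33, edgeR adjusted p = 0.789). The value rests on the choice of libraries: it was -0.65 without adenine 3 and -0.0072 without adenine 2.

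Pdgfrb encodes the beta receptor for platelet-derived growth factor, carried by pericytes and stromal cells. Pdgfrb (ENSMUSG00000024620, chromosome 18, 61178222 to 61218133) had 73.6, 102 and 95.5 CPM in adenine 1, 2 and 3, against 97.5, 95.4 and 127 CPM in control 1, 2 and 3. Only adenine 1 lay below the control range. The log2 fold change was -0.24 (SE 0.24, edgeR adjusted p = 0.697), a 0.846-fold level with a 95% interval of 0.578 to 1.24.

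Of the secreted or membrane-bound ligands, Kitl encodes stem cell factor, on which haematopoietic stem cells and mast cells depend. Kitl (ENSMUSG00000019966, chromosome 10, 99851492 to 99936278) had 56.8, 60.5 and 77.3 CPM in adenine 1, 2 and 3, against 77.9, 61.4 and 116 CPM in control 1, 2 and 3. Control 3 stood above all other libraries, and control 2 lay within the adenine range. The adenine level was 0.763-fold that of the control level (95% interval 0.482 to 1.21), and the log2 fold change was -0.39 (SE 0.29, edgeR adjusted p = 0.621). It was -0.0996 without control 3. That library had the lowest neutrophil (409.6 CPM) and erythroid (9998 CPM) marker sums and the highest skeletal muscle (107000 CPM) and adipocyte (1174 CPM) marker sums. The part of these residues in the Kitl value was not tested.

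Angpt1 encodes angiopoietin 1, the ligand that activates the endothelial receptor TIE2. Angpt1 (ENSMUSG00000022309, chromosome 15, 42288119 to 42540373) had 29.3, 17.1 and 35.7 CPM in adenine 1, 2 and 3, against 33.9, 62.2 and 48.2 CPM in control 1, 2 and 3. Adenine 3 lay just above control 1, so the groups overlapped. The estimate was the most negative of the 8: a 0.57-fold level (95% interval 0.329 to 0.986) and a log2 fold change of -0.81 (SE 0.34, edgeR adjusted p = 0.465), with an unadjusted p of 0.0456. It ran from -1.05 without adenine 3 to -0.57 without adenine 2. With the muscle marker level as a covariate it was -1.29 (edgeR adjusted p = 0.206), and with the kidney tubule level it was -0.66, with an unadjusted p of 0.197.

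Il7 encodes interleukin 7, the stromal cytokine of B cell precursors, and was the least abundant member. Il7 (ENSMUSG00000040329, chromosome 3, 7635054 to 7678820) had 17, 16 and 56 reads in adenine 1, 2 and 3, against 37, 20 and 33 reads in control 1, 2 and 3. The 95% exact Poisson interval was 42.3 to 72.7 reads for adenine 3 and 9.1 to 26.0 reads for adenine 2, for counting error only. Adenine 3, at 4.21 CPM, stood above all other libraries, which had 1.57 to 2.65 CPM. The log2 fold change was 0.11 (SE 0.60, edgeR adjusted p = 0.949), and its 95% interval, a 0.411 to 2.84-fold level, is the widest of the members. Without adenine 3 it was -0.51. The antisense lncRNA gene Gm16685 overlaps Il7 and was listed at 0.177, 0 and 0.821 FPKM in adenine 1, 2 and 3 and at 0 in the control libraries. No source used here gives the strand setting of the counting, so reads of the pair cannot be told apart with certainty.

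Vcam1 encodes the adhesion molecule through which stromal, endothelial and macrophage cells hold blood-forming cells by their integrins. Vcam1 (ENSMUSG00000027962, chromosome 3, 115903598 to 115923337) had 58.0, 52.6 and 84.0 CPM in adenine 1, 2 and 3, against 58.9, 80.2 and 59.1 CPM in control 1, 2 and 3. The groups spanned nearly the same range, with adenine 3 and control 2 high and the other libraries low. Its fold level was 0.982 with a 95% interval of 0.648 to 1.49 (log2 fold change -0.026, SE 0.26, edgeR adjusted p = 0.973).

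Per kilobase of gene length, in the authors' FPKM, the members had a similar order of level in both groups, with Angpt1 above Vcam1 and Foxc1 above Lepr in the control group only. Pdgfrb was the most abundant, at 16.0 ± 1.998 FPKM in the adenine group and 18.3 ± 3.41 FPKM in the control group (SD, n = 3 each). Kitl followed at 10.7 ± 1.71 FPKM in the adenine group and 13.5 ± 4.69 FPKM in the control group, and the ranges of Pdgfrb and Kitl overlapped in the control group only. Vcam1 had 7.12 ± 1.84 FPKM in the adenine group and 6.99 ± 1.30 FPKM in the control group. Angpt1, at 5.14 ± 1.85 FPKM in the adenine group and 8.69 ± 2.62 FPKM in the control group, overlapped Vcam1 in both. Lepr had 4.67 ± 2.06 FPKM in the adenine group and 5.28 ± 0.893 FPKM in the control group, and Foxc1 had 3.92 ± 0.143 FPKM in the adenine group and 5.74 ± 0.590 FPKM in the control group, so these neighbours overlapped as well. Ebf3, at 1.71 ± 0.171 FPKM in the adenine group and 2.01 ± 0.234 FPKM in the control group, lay below Foxc1 and above Il7 in every library. Il7 was at 0.426 ± 0.253 FPKM in the adenine group and 0.382 ± 0.0785 FPKM in the control group.

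The members did not share 1 profile over the libraries. Adenine 3 was the highest adenine library for 6 of 8 members, the exceptions being Foxc1 and Pdgfrb. Likeness was measured as the root mean square difference of mean-centred log2 CPM over the 6 libraries, a description that includes the diet groups. The closest pair was Ebf3 and Pdgfrb (0.078), followed by Ebf3 and Foxc1 (0.195), Kitl and Pdgfrb (0.208) and Kitl and Ebf3 (0.21). Lepr was closest to Vcam1 (0.231), and the least alike pair was Il7 and Angpt1 (0.663). In Lepr, Vcam1 and Angpt1 the muscle-rich adenine 2 was the lowest of all 6 libraries, and in Kitl, Ebf3, Pdgfrb and Il7 the kidney-rich adenine 1 was. Control 3, with the highest muscle marker sum, had 41.8 CPM of Lepr, 59.1 CPM of Vcam1 and 48.2 CPM of Angpt1. The part of these residues in the values was not tested.

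**Figure D3:**
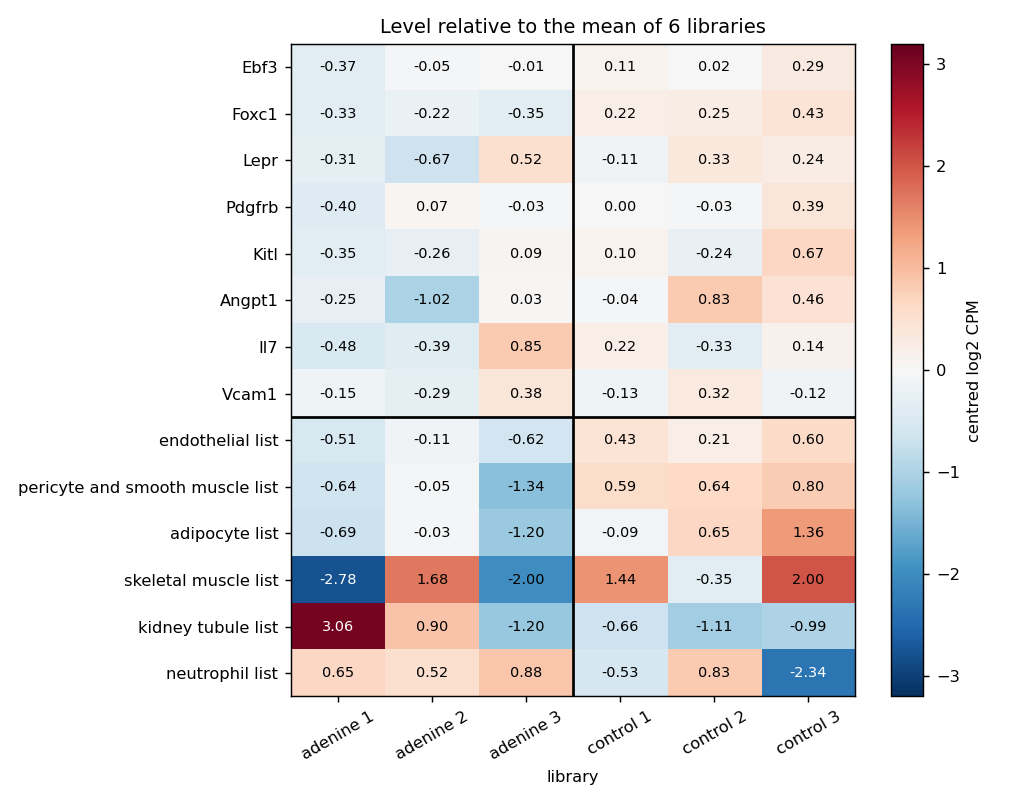
Centred log2 CPM (colour and printed value) of each niche factor and the mean of 6 marker lists (rows) in each library (columns). Endothelial and pericyte levels are below 0 in every adenine library and above 0 in every control library, whereas Lepr, Il7 and Vcam1 are highest in adenine 3.

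Partners of the niche factors were examined as a list of 19 receptors, ligands and signalling genes, of which 18 were tested. None was called by edgeR (0 of 18). At an unadjusted p under 0.05 there were 4 lower and 2 higher (0 higher without adenine 1 or adenine 3, and 1 without control 1). By that measure 6.49% of all tested genes were lower and 4.22% higher. The median log2 fold change of the list was -0.07. Tek, the receptor of angiopoietin 1, had 18.1, 36.2 and 17.6 CPM in adenine 1, 2 and 3, against 47.0, 45.7 and 65.9 CPM in control 1, 2 and 3. Its groups did not overlap, with a log2 fold change of -1.14 (SE 0.34, edgeR adjusted p = 0.334). The related receptor Tie1 (-0.998, SE 0.24) and the competing ligand Angpt2 (-0.59, SE 0.24) also had every adenine library below every control library. Without adenine 2, edgeR called Tek (-1.57, adjusted p = 0.045). Tek and Tie1 are themselves 2 of the 15 endothelial markers. With all libraries, edgeR called none of the other 13, of which 12 had a negative fold change (median -0.85). Of these 13, 9 were lower at an unadjusted p under 0.05, as were 6.49% of all tested genes. Among all 15 endothelial markers, edgeR called 2 without adenine 2, Tek among them. The DESeq2 Wald test called 7 of the 15 lower with all libraries. These 13 summed to 466 to 707 CPM in the adenine libraries and 925 to 1212 CPM in the control libraries, and none was at 0 in all libraries. The part of endothelial content in the Tek value was not tested.

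The receptors on blood-forming cells gave another picture. Kit, the receptor of stem cell factor, had 24.1, 18.9 and 26.4 CPM in adenine 1, 2 and 3, against 14.6, 32.7 and 17.9 CPM in control 1, 2 and 3, and Il7r, the interleukin 7 receptor, had 35, 4 and 69 reads in adenine 1, 2 and 3, against 44, 48 and 19 reads in control 1, 2 and 3. Both sets of values overlapped widely (log2 fold change 0.09, SE 0.34, for Kit and 0.01, SE 0.84, for Il7r). Itga4, the integrin chain that binds VCAM1, had a log2 fold change of 0.51 (SE 0.42), and Itgb7, one of its partner chains, had 1.16 (SE 0.39), with every adenine library higher. Its other partner chain Itgb1, named after its values were seen, had 349, 468 and 422 CPM in adenine 1, 2 and 3, against 497, 488 and 627 CPM in control 1, 2 and 3. Every adenine library of Itgb1 was lower (-0.38, SE 0.29, edgeR adjusted p = 0.637). Of the ligands of platelet-derived growth factor receptors, Pdgfa was lower in every adenine library (-0.85, SE 0.20) while Pdgfb, a ligand of PDGFRB, had -0.17 (SE 0.22). Pdgfd (-0.49, SE 0.30) and Pdgfc (0.71, SE 0.37), named after their values were seen, overlapped between groups. Socs3, the feedback inhibitor of leptin and cytokine receptors, had 0.73 (SE 0.28). By the DESeq2 Wald test Tie1 (adjusted p = 0.0263) and Pdgfa (adjusted p = 0.0307) were called lower and no other gene of this list.

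Pericytes carry Pdgfrb too, and their other markers were read as a list. edgeR called 0 of 11 pericyte and smooth muscle markers, and 7 of 11 were lower at an unadjusted p under 0.05, as were 6.49% of all genes. The DESeq2 Wald test called 4 of 11 lower, while it called 2.8% of all genes in either direction. Without adenine 2, edgeR called 2 of 11. All 11 had a negative log2 fold change (median -1.20), of which Higd1b (-0.08), Abcc9 (-0.78) and Notch3 (-0.89) overlapped between groups. Acta2, smooth muscle actin, had 189, 176 and 77.7 CPM in adenine 1, 2 and 3, against 472, 505 and 481 CPM in control 1, 2 and 3. Rgs5, a marker of pericytes, had 273, 491 and 331 CPM in the adenine libraries, against 635, 500.1 and 795 CPM in the control libraries, with the groups just apart. Pdgfrb, at -0.24, had an interval (log2 -0.79 to 0.31) that does not reach the list's median, though the difference between Pdgfrb and the list was not tested.

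A further 26 genes of marrow stroma outside the members were all tested. None was called by edgeR, and 18 of 26 had a negative fold change (median -0.55). At an unadjusted p under 0.05, 5 were lower and 2 higher, against 6.49% and 4.22% of all tested genes. Without adenine 2, 9 were lower and 3 higher at an unadjusted p under 0.05, a setting in which 14.1% of all tested genes were lower and 5.57% higher by that measure. Without adenine 3, 1 was higher. Cxcl12, whose values are given above, had -0.26 (SE 0.33, edgeR adjusted p = 0.756). Grem1, an antagonist of bone morphogenetic proteins made by stromal and other mesenchymal cells, had 2.22, 2.84 and 4.43 CPM in adenine 1, 2 and 3, against 20.4, 30.2 and 30.3 CPM in control 1, 2 and 3. This gap was far wider than the spread within either group, with a log2 fold change of -3.08 (SE 0.36, edgeR adjusted p = 0.169, the smallest in the whole table). The DESeq2 Wald test called Grem1 lower (adjusted p = 4.48e-10), and with 1 library left out edgeR gave -3.42 to -2.88, calling it without adenine 2 (adjusted p = 0.0382) and, with all libraries, when no filter on low counts was used (adjusted p = 0.00496). Chrdl1, another antagonist of these proteins, had -1.63 (SE 0.35), Thy1, a surface protein of fibroblasts and stroma, -1.56 (SE 0.35), and Igfbp5, a binding protein of insulin-like growth factors, -1.22 (SE 0.33). These 3 also had no overlap between groups and were called lower by the DESeq2 Wald test (adjusted p 0.00468, 0.0119 and 0.00736 in that order). Periosteal and tendon fibroblast markers, which mark another possible source of such transcripts, had 12 of 13 negative fold changes (median -1.10) and summed to 1186 to 1994 CPM in the adenine and 2257 to 3107 CPM in the control libraries. Schwann cell and nerve markers, with 9 of 10 lower at an unadjusted p under 0.05, summed to 127 to 180.0 CPM in the adenine and 365 to 852 CPM in the control libraries. The DESeq2 Wald test called lower 5 of 13 periosteal and 7 of 10 Schwann markers. With all libraries edgeR called none of either list, and without adenine 2 it called 6 of 13 and 5 of 10. The part of these cells in the values was not tested.

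Among these 26 stromal genes, Csf1 had the smallest p of those with a positive fold change. It encodes the macrophage colony-stimulating factor, made by stromal and bone cells, and had 109.7, 102.5 and 181 CPM in adenine 1, 2 and 3, against 65.0, 47.4 and 43.7 CPM in control 1, 2 and 3. Every adenine library was higher (log2 fold change 1.33, SE 0.30, edgeR adjusted p = 0.243; DESeq2 Wald adjusted p = 0.0105), and with 1 library left out the value ran from 1.03 to 1.53. Ccn5, a matricellular protein also called WISP2, had 1.08 (SE 0.34), with every adenine library higher. Csf1 belongs to the list of 15 haematopoietic cytokines as well, of which 11 were in the table and 7 could be tested. There, Tnfsf11 (1.42, SE 0.54), the osteoclast-inducing ligand RANKL, and Lif (1.69, SE 0.65), a cytokine of the interleukin 6 family, also had every adenine library above every control library. The other 4 tested, Il34 (-0.61), Il15 (-0.78), Flt3l (-0.39) and Tnfsf13b (-0.27), overlapped between groups. The 4 filtered out for low counts included 3 whose adenine libraries all lay below the control libraries, named here after their values were seen. Thpo, thrombopoietin, had 3, 3 and 1 reads in adenine 1, 2 and 3, against 31, 6 and 30 reads in control 1, 2 and 3. Tslp and Il6, both cytokine genes, had 0 reads in every adenine library, which allows up to 3 reads each. In the control libraries Tslp had 9, 4 and 29 reads and Il6 had 18, 3 and 5 reads. With no filter on low counts, 3 of 11 cytokines were higher and 3 lower at an unadjusted p under 0.05, against 3.15% and 5.05% of all genes. That setting brought in the 4 filtered out, among them the 3 named for their low adenine reads, so its lower count is no support. Without adenine 3, 1 of 8 tested stood higher at an unadjusted p under 0.05 (3.07% of all genes), and Tnfsf11 had 0.69. All 9 macrophage markers had a positive fold change, and 7 of 9 were higher at an unadjusted p under 0.05, as were 4.22% of all tested genes. This count was 3 of 9 without adenine 3 (3.07% of all genes), and 4 of 9 without control 1 (2.77%) or control 2 (8.7%). The macrophage markers summed to 357 to 667 CPM in the adenine and 211.5 to 234 CPM in the control libraries. Their part in the cytokine values was not tested.

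**Figure D4:**
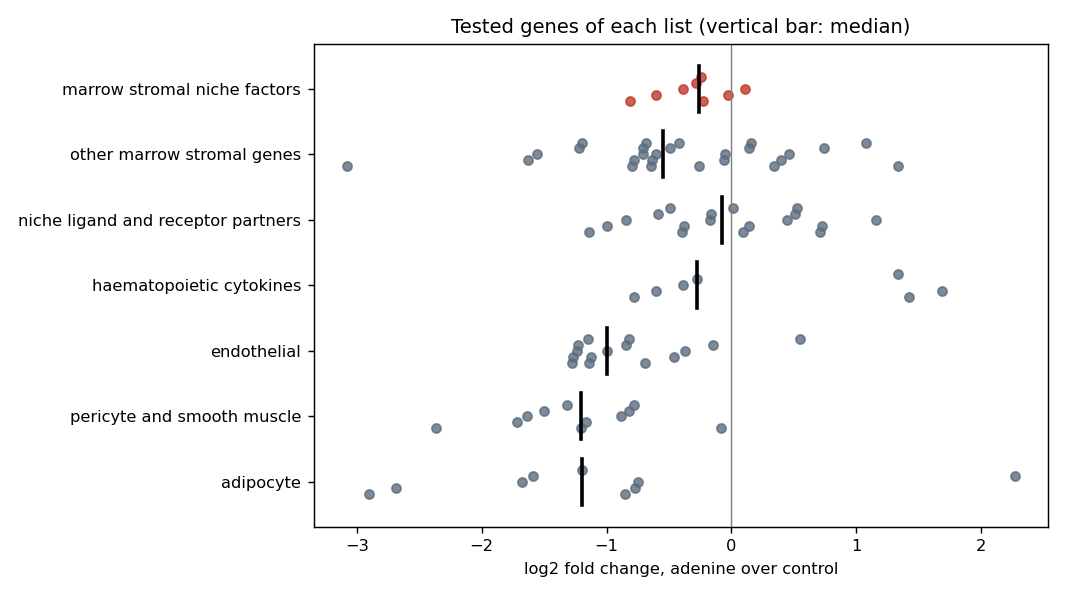
Log2 fold change (adenine over control, x axis) of every tested gene in 7 lists (y axis), with the niche factors in red at the top and a vertical bar at each list's median. The niche factors lie between -0.81 and 0.11, while the endothelial, pericyte and adipocyte lists have medians of -0.998, -1.20 and -1.20.

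Cells that answer to the niche were read through their own markers. Of 13 B cell precursor markers 8 were tested, none was called by edgeR and the DESeq2 Wald test called 1 lower. At an unadjusted p under 0.05, 3 of 8 were lower, as were 6.49% of all tested genes. Rag1, 1 of these 3, passed the filter on low counts through its control reads alone, so its place in the count is no support. The count was 1 of 8 without control 2 (8.98% of all genes) and 6 of 11 without control 3 (3.23%). It was 5 of 12 without adenine 1 (4.02%) or adenine 2 (14.1%), and 9 of 13 with no filter on low counts (5.05%). Each of the 5 markers not tested in the main fit had 0 or 1 reads in every adenine library. Settings that test more than 8 markers take them from these 5, which enter through their control reads. Their place in those counts is therefore no support either. Rag1, the recombinase of lymphoid precursors, had 0 reads in each adenine library, which allows up to 3 reads each, against 15, 121 and 16 reads in control 1, 2 and 3. Control 2 was the highest library, far above the other two control libraries. The 12 markers of stem and progenitor cells had a median log2 fold change of -0.14, with 2 lower and 1 higher at an unadjusted p under 0.05. Of all tested genes, 6.49% were lower and 4.22% higher by that measure. Without control 2 that median was 0.56, and without adenine 2 it was 0.08. Adipocytes, which arise from Lepr-expressing stroma in mouse marrow, had 4 of 9 tested markers lower at an unadjusted p under 0.05 (median -1.20). With all libraries edgeR called none and the DESeq2 Wald test called 3 of 9 lower. Without adenine 2, 8 of 10 were lower at an unadjusted p under 0.05 (median -2.24) and edgeR called 1. Without control 1 that count was 6 of 10 lower (median -1.74), and without control 3 it was 3 of 9 (median -0.79). Plin1, the coat protein of fat droplets, had 3.70, 3.78 and 3.91 CPM in adenine 1, 2 and 3, against 9.10, 26.1 and 38.4 CPM in control 1, 2 and 3. Adipoq, expressed by both adipocytes and marrow stroma, had 11.5, 9.98 and 21.3 CPM in the adenine libraries, against 16.2, 33.8 and 48.2 CPM in the control libraries, which overlap.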

How the data were processed

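Per the labels' protocols, polyA RNA came from pulverised tibiae without marrow. Libraries were grouped by diet. Tools listed in the submitters' processing notes, with no role, are edgeR 3.22.5, DESeq2, featureCounts 1.5.0-p3 and HISAT2 2.0.5. Build, annotation and strand setting: not given in the sources used here. The authors deposited raw counts per gene, a normalized signal (counts divided by a size factor of 0.825 to 1.2 per library, tested on the values), FPKM, and their own log2 fold changes with p-values.

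The deposited counts were tested with edgeR 4.0.16 in R 4.3.3 (TMM scaling, filterByExpr with a minimum count of 10, robust glmQLFit, two-sided, diet as the only term), adjusted by Benjamini-Hochberg over 15609 genes. The standard error is the size of the log2 fold change over the root of F, and 95% intervals use the moderated degrees of freedom. DESeq2 1.42.0 and limma 3.58.1 (on log2(FPKM + 1) and log2(FPKM + 0.1), mean FPKM of at least 1) were alternatives. The procedure was checked on simulated data. Where symbols repeat, the higher mean was used. With 3 libraries against 3, an exact permutation test cannot give a p under 0.1.

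The members and lists were chosen with earlier results of these data known. Named by rule were the members, 6 fixed partners, the 6 smallest p of 3 lists, up to 2 genes per marker list and the 2 genes nearest each member. Tnfsf13b, Itgb1, Higd1b, Abcc9, Notch3, Thpo, Tslp, Il6, Aqp1, Pdgfc and Pdgfd, outside this rule, were named after their values were seen. One item is not reported here. List counts under other settings, and the endothelial list without partners, were added after seeing the data. Sequences are RefSeq's, matched by symbol; their build's coordinates were not mixed with the files'.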

Additional observations from a re-analysis of the deposited data

How the results depend on the processing

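Of 141 log2 fold changes of members under 18 alternatives, 129 kept their sign and 12 turned it; edgeR, DESeq2 and limma called no member under any of them (smallest adjusted p = 0.192). Turned signs belonged to Vcam1, Il7, Lepr and Pdgfrb. Vcam1 had 0.011 with either FPKM pseudocount and 0.20 once the kidney tubule level was in the fit, and Lepr then had 0.10. Il7 had -0.016 with the replicate block, -0.020 with the muscle level and, the largest turned value, -0.51 without adenine 3. Pdgfrb had 0.031 without control 3 and adenine 1 together. With 1 library left out, Vcam1 ran from -0.26 to 0.13, Il7 from -0.51 to 0.36, Lepr from -0.65 to -0.0072, Kitl from -0.58 to -0.0996, Ebf3 from -0.35 to -0.18 and Pdgfrb from -0.34 to -0.088. The cause was not tested. Il7 had no value under the FPKM fits or a minimum count of 50, which leave it out.

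Genes called over the whole table numbered 0 in edgeR, 436 by the DESeq2 Wald test, 1 in limma with either pseudocount, 66 with no filter, 1 with the muscle level, and 0 to 334 with 1 library left out. Members at an unadjusted p under 0.05 numbered 2 in edgeR, 1 in DESeq2, 1 in limma with either pseudocount, 1 with haemoglobin, mitochondrial and muscle genes left out, 1 with the muscle level, 0 with the kidney level, 0 without control 3 and adenine 1 together, and 0 to 2 with 1 library left out. With the replicate block that number was 0. Deviations of same-numbered libraries from their group means correlated at -0.039, -0.452 and -0.165, and those of differently numbered ones at -0.325 to 0.387. With 3 libraries per diet these values cannot settle whether the libraries were paired. At the members' median standard error (0.272), a difference of under 1.55-fold cannot be told from none even before adjustment. Lower pericyte markers at an unadjusted p under 0.05 numbered 5 to 10 of 11, endothelial markers 8 to 13 of 15 and periosteal markers 4 (without control 3) to 8 of 13 with 1 library left out; of all genes, 3.23% to 14.1% did so.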

Other observations

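Genes outside the niche factors with the most similar profile over the 6 libraries were found by the same root mean square difference, among 13742 protein-coding genes. Lepr was nearest to Fbn1, which encodes the matrix protein fibrillin 1 (0.0716), and Pced1a (0.104). Kitl was nearest to Kctd17 (0.0656) and Kctd12 (0.0719), Foxc1 to the semaphorin receptor gene Plxnd1 (0.0467) and to Parva (0.0614), and Angpt1 to the laminin-binding integrin chain Itga6 (0.133) and Fam174b (0.144). Ebf3 was nearest to Cyth1 (0.0278) and Msl3 (0.0504), Pdgfrb to Mtmr6 (0.0327) and Abhd13 (0.0495), and Vcam1 to Wdr61 (0.0581) and Cnpy4 (0.0608). Il7 was nearest to Stx18 (0.119) and 1700030K09Rik (0.156). The median over all candidates was 0.462 to 0.719, depending on the member. With 6 libraries and 13742 candidates, close profiles occur among unrelated genes, so these names are a description only.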
